A study of Arabidopsis thaliana with 21 samples.

Results

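The tau and phi glutathione S-transferases of Arabidopsis thaliana are described here across 3 groups of plants sampled at 1.5 h. Members were taken by locus from the NimbleGen expression table: every row whose name, without its final number, is the locus of GSTU1 to GSTU28 or GSTF2 to GSTF14. This gave 41 loci, 28 of the tau class and 13 of the phi class, represented by 45 of the 37118 features on the array, which together name 32627 loci. GSTF4 has 3 features, GSTU9 and GSTF9 have 2 each, and a locus is represented by its brightest feature, the one with the highest mean over the 9 arrays. Of the 41 members, 29 lie in 9 tandem clusters, runs of related genes side by side on a chromosome, and 12 lie outside them.

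Plants of the Col-0 accession were grown for 7 days on a medium with 1 mM phosphate, kept for 2 days without phosphate and then moved to liquid medium, so all 3 groups had been starved of phosphate. The first group, OXW6, consisted of plants labelled as overexpressing the transcription factor gene WRKY6 and given 30 µM arsenate. The second was wild type given 30 µM arsenate, and the third was wild type without supplement. Each group had 3 arrays, from 3 independent biological samples. The labels name neither the promoter nor the number of transgenic lines. The series holds no OXW6 group without arsenate, so the response of OXW6 plants to arsenate could not be estimated apart from genotype.

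Glutathione S-transferases join the thiol of glutathione to reactive or foreign compounds, and the conjugates are then moved into the vacuole. The tau and phi classes are the large plant classes of the family, and many of their genes respond to oxidants, xenobiotics, hormones and pathogens within hours. Arsenate enters plant cells through phosphate transporters and is reduced there to arsenite, which binds thiols, and glutathione is also the building block of the phytochelatins that hold arsenite.

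Values are log2 levels from RMA, on which 1 log2 unit stands for a 2-fold difference. The levels of the 9 arrays had medians of 12.33 to 12.42, and the brightest feature of each array lay at 15.95 to 15.97. A feature near that top has little room to rise, and 10 of the 41 members had a mean level of 15.31 or above, the brightest 10% of features, whereas 1, GSTU15, lay below the lower quartile. Replicate arrays correlated with Pearson's r of 0.9804 to 0.9955 across features. WRKY6 had levels of 15.82, 15.80 and 15.87 on OXW6 arrays, 15.82, 15.85 and 15.85 on wild-type arsenate arrays, and 15.61, 15.50 and 15.55 on wild-type control arrays. OXW6 and wild type with arsenate thus overlapped for the gene named in the label (difference -0.01 ± 0.06, SE, adjusted p = 0.99), at a level near the top of the scale, so the array does not show the overexpression and the plants are called OXW6 by their label only.

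How these genes responded to arsenate in wild type was compared first. At an adjusted p under 0.05, 14 members were higher with arsenate, 11 were lower and 16 were not called. Of all features 18.9% were called higher and 20.2% lower, and among brightest features of protein-coding loci these shares were 14.3% and 23.5%, so calls were common on these arrays. Of the members, 10 rose and 3 fell by at least 1 log2 unit, against 7.11% and 5.03% of all features. The classes divided as follows: 13 of 28 tau members rose and 8 fell (median difference 0.16), and 1 of 13 phi members rose and 3 fell (median -0.03). The median over the 41 members was 0.02, against -0.02 over all features. The 10 members at 15.31 or above held 2 of the higher calls and 0 of the lower, and the 31 dimmer members held 12 and 11. Those 10 were GSTU13, GSTU17, GSTU19 and GSTU20 of the 28 tau members, and GSTF2 and GSTF6 to GSTF10 of the 13 phi members. A larger share of the phi class thus had little room to rise. The difference between the classes, and the part of level in it, was not tested.

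**Figure D1:**
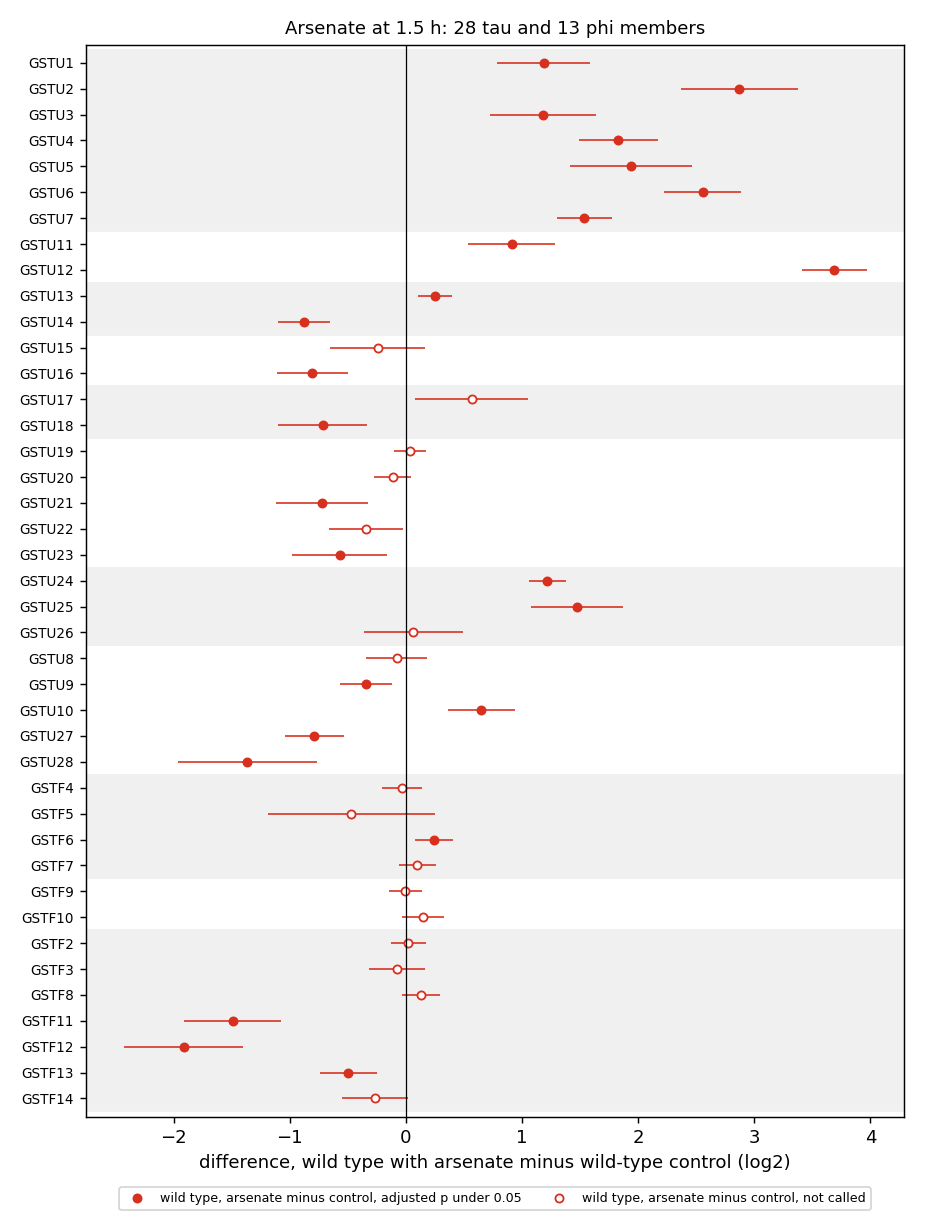
Difference between wild type with arsenate and wild-type control at 1.5 h (x axis, log2 units) for each of the 41 members (rows; tau above phi, tandem clusters and genes outside clusters in alternately shaded bands). Points are limma estimates, lines their 95% confidence intervals, and filled points passed an adjusted p of 0.05; all of GSTU1 to GSTU7 lie right of 1, GSTU12 lies farthest right at 3.69 and GSTF12 farthest left at -1.92.

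The largest tandem cluster, GSTU1 to GSTU7 (AT2G29490 to AT2G29420), rose as a whole. All 7 of its members were called higher, by 1.18 to 2.87 with a median of 1.83, and on no member did an arsenate array overlap a control array, a separation that 27.6% of all features showed upward and 27.6% downward. The median over the 7 genes lay 1.70 to 1.95 above the control mean on the wild-type arsenate arrays, against -0.12 to 0.01 on the control arrays, so each arsenate plant sample showed it.

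GSTU2 (AT2G29480) had the largest difference of the cluster. Its level was 12.67, 13.23 and 12.33 on wild-type arsenate arrays and 9.91, 9.87 and 9.84 on control arrays. All control arrays lay below 10 and all arsenate arrays above 12, and the rise was 2.87 ± 0.22 (SE, n = 3 each, adjusted p = 5.7e-05). GSTU6 (AT2G29440) had 15.04, 15.00 and 14.80 on wild-type arsenate arrays and 12.15, 12.68 and 12.34 on control arrays, and rose by 2.56 ± 0.14 (adjusted p = 1.2e-05). GSTU5 (AT2G29450), an auxin-inducible member, had 15.64, 15.64 and 15.62 on wild-type arsenate arrays and 13.27, 14.31 and 13.51 on control arrays. Its arsenate values lay close together near the top of the scale, while its controls were spread, and it rose by 1.94 ± 0.23 (adjusted p = 0.00053).

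GSTU4 (AT2G29460) had 15.09, 14.90 and 14.80 on wild-type arsenate arrays and 13.18, 12.88 and 13.24 on control arrays, a rise of 1.83 ± 0.15 (adjusted p = 8.3e-05). GSTU7 (AT2G29420), a gene known to respond to peroxide, had 15.44, 15.48 and 15.19 against 13.71, 14.00 and 13.79 and rose by 1.54 ± 0.10 (adjusted p = 3e-05). The smallest rises were those of GSTU1 and GSTU3. GSTU1 (AT2G29490) had 14.41, 14.42 and 13.99 with arsenate and 13.30, 13.10 and 12.85 in controls, and rose by 1.19 ± 0.17 (adjusted p = 0.0015). GSTU3 (AT2G29470) had 14.12, 14.03 and 14.05 with arsenate and 12.75, 12.72 and 13.19 in controls, and rose by 1.18 ± 0.20 (adjusted p = 0.003). The 7 members thus all rose, by amounts that differed more than their standard errors of 0.10 to 0.23; differences between members were not tested.

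**Figure D2:**
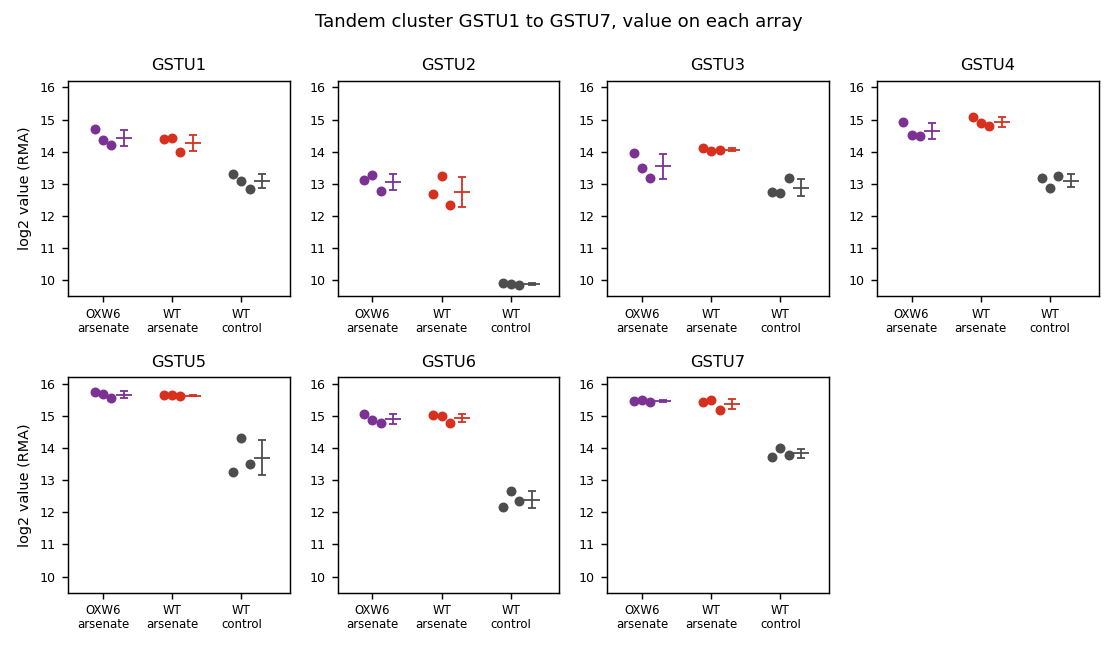
Log2 level of GSTU1 to GSTU7 (y axes, 1 panel per gene) on each array of OXW6 with arsenate, wild type with arsenate and wild-type control at 1.5 h. Points are single arrays in the order of their replicate numbers, and the bar beside them is the mean ± SD of the 3; both arsenate groups lie above the controls in each panel except GSTU3, where the lowest OXW6 array (13.17) lies below the highest control array (13.19).

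Genes that are not glutathione S-transferases also lie in and around this cluster in the RefSeq gene order. Of 5 such loci inside it, 2 have a feature on the array: AT2G29430 rose by 1.88 ± 0.22 (adjusted p = 0.00053), from a low mean level of 10.64 over all arrays, and AT2G29452 differed by 0.19 ± 0.09 (adjusted p = 0.14). Of the 5 loci on either side, 9 are on the array, and 1 rose (AT2G29500, by 3.48 ± 0.09) and 1 fell. Of all features 18.9% were called higher and 20.2% lower. These neighbours were looked up after the members' values had been seen.

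The pair GSTU11 and GSTU12 rose too. GSTU12 (AT1G69920) had 15.43, 15.49 and 15.48 on wild-type arsenate arrays and 12.08, 11.66 and 11.60 on control arrays, and its rise of 3.69 ± 0.12 (adjusted p = 8.8e-07) was the largest of any member. Its arsenate level sat close to the array maxima, so the size of the rise may be compressed, which was not tested. GSTU11 (AT1G69930), its neighbour, had 15.26, 14.97 and 15.16 with arsenate and 14.37, 13.87 and 14.43 in controls, and rose by 0.91 ± 0.16 (adjusted p = 0.0041). Of 10 flanking loci on the array 3 rose, by up to 1.95 for AT1G69890, and 2 fell, against 18.9% and 20.2% of all features. Loci beside other clusters were called too. Beside GSTU24 to GSTU26, 3 of 8 rose and 2 fell, and beside GSTU19 to GSTU23, 2 of 8 rose and 1 fell. Beside GSTF4 to GSTF7, 4 of 9 rose and 0 fell, and beside GSTU13 and GSTU14, 1 of 9 rose and 4 fell. Next to GSTF9 and GSTF10, 2 of 10 rose and 3 fell. Next to GSTU15 and GSTU16, 1 of 8 rose and 1 fell, and next to GSTU17 and GSTU18, 1 of 8 rose and 2 fell.

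In the trio GSTU24 to GSTU26, 2 members rose and 1 was not called. GSTU24 (AT1G17170) and GSTU25 (AT1G17180) encode enzymes that act on the explosive trinitrotoluene and are known to be induced by xenobiotics. GSTU24 had 15.56, 15.58 and 15.59 on wild-type arsenate arrays and 14.37, 14.43 and 14.28 on control arrays, a rise of 1.22 ± 0.07 (adjusted p = 1.2e-05). GSTU25 had 14.97, 15.05 and 14.89 with arsenate and 13.50, 13.86 and 13.11 in controls, a rise of 1.47 ± 0.17 (adjusted p = 0.00052). GSTU26 (AT1G17190) had 14.68, 14.66 and 14.19 with arsenate and 14.62, 14.63 and 14.08 in controls. Its groups overlapped almost fully (0.06 ± 0.18, 95% confidence interval -0.36 to 0.49, adjusted p = 0.81), and that interval lies wholly below the estimates for its 2 neighbours.

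Tandem pairs could also split. In the pair GSTU13 and GSTU14, GSTU13 (AT1G27130), known from indole glucosinolate metabolism, had 15.47, 15.50 and 15.55 on wild-type arsenate arrays and 15.31, 15.21 and 15.24 on control arrays. It rose by 0.25 ± 0.06 (adjusted p = 0.018), and the call was lost without control replicate 3 (0.056) or wild-type arsenate replicate 3 (0.06). GSTU14 (AT1G27140) had 13.31, 13.08 and 13.01 with arsenate and 14.02, 14.11 and 13.90 in controls, and fell by 0.88 ± 0.10 (adjusted p = 0.0004). Both groups were separate for both genes, with opposite signs. GSTU17 (AT1G10370), known as ERD9, a gene of early response to dehydration, had 15.75, 15.83 and 15.82 with arsenate and 14.65, 15.60 and 15.45 in controls. Control replicate 1 lay low, and the difference of 0.57 ± 0.21 did not pass (adjusted p = 0.066); without that array it was 0.27 and passed (0.039), and without control replicate 2 it was 0.75 (0.03). It also passed with a block for the replicate number (0.0483), median centring (0.044), an intensity trend with a robust prior (0.038) or array weights (0.044). Its neighbour GSTU18 (AT1G10360) had 12.92, 13.44 and 13.14 with arsenate and 13.76, 14.22 and 13.68 in controls, and fell by 0.72 ± 0.17 (adjusted p = 0.013).

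GSTU16 (AT1G59700) fell by 0.81 ± 0.13 (adjusted p = 0.0027), with 12.00, 12.46 and 12.16 on wild-type arsenate arrays and 12.90, 12.95 and 13.19 on control arrays. Its partner GSTU15 (AT1G59670) lay at 8.72, 9.08 and 8.45 with arsenate and 9.01, 9.07 and 8.91 in controls, below the lower quartile of all levels, and was not called (-0.24 ± 0.18, adjusted p = 0.31). The difference was -0.41 without wild-type arsenate replicate 2 and -0.09 without wild-type arsenate replicate 3. The array may not resolve a difference at that level.

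The cluster GSTU19 to GSTU23 had no rise: 2 members fell and 3 were not called. GSTU19 (AT1G78380) and GSTU20 (AT1G78370) lay near the top of the scale. GSTU20 encodes a partner of FIN219, a protein of jasmonate and light signalling. GSTU19 had 15.87, 15.81 and 15.85 on wild-type arsenate arrays and 15.84, 15.79 and 15.80 on control arrays (0.03 ± 0.06, adjusted p = 0.68), and GSTU20 differed by -0.11 ± 0.07 (adjusted p = 0.22). For both a rise would be hard to see at that level. GSTU21 (AT1G78360) had 11.46, 11.32 and 11.10 with arsenate and 12.35, 11.79 and 11.90 in controls, and fell by 0.72 ± 0.17 (adjusted p = 0.014). GSTU23 (AT1G78320) fell by 0.57 ± 0.18 (adjusted p = 0.035) with groups that overlapped. Its call was lost without control replicate 2 or 3 or arsenate replicate 1 or 3 (0.094 to 0.11), and on subtracting the median difference of features of like level, which left -0.38 (0.14). It was also lost with median centring (0.06) or the compared groups only (0.058). GSTU22 (AT1G78340) differed by -0.35 ± 0.14 (adjusted p = 0.08) but was called when the replicate number was a block (0.029) or without control replicate 3 (-0.50, 0.016).

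Of the 5 tau genes outside clusters, 1 rose and 3 fell. GSTU10 (AT1G74590) had 14.96, 14.98 and 14.88 on wild-type arsenate arrays and 14.57, 14.06 and 14.24 on control arrays, and rose by 0.65 ± 0.13 (adjusted p = 0.0057). GSTU28 (AT1G53680) had 13.75, 12.98 and 13.06 with arsenate and 15.06, 14.55 and 14.28 in controls, and its fall of 1.37 ± 0.26 (adjusted p = 0.0053) was the largest in the tau class. Replicate 1 was the highest array in both groups, which stayed apart. GSTU27 (AT3G43800) fell by 0.79 ± 0.11 (adjusted p = 0.0012). GSTU9 (AT5G62480) fell by 0.34 ± 0.10 (adjusted p = 0.024), and its dimmer feature by 0.31 ± 0.10 (0.045). The call on the brighter feature was lost without control replicate 1 or 2 or arsenate replicate 1 or 3 (0.057 to 0.077). It was also lost with median centring (0.0531) or subtraction of the median difference of features of like level (0.0525). GSTU8 (AT3G09270) was not called (-0.08 ± 0.11, adjusted p = 0.61).

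**Figure D3:**
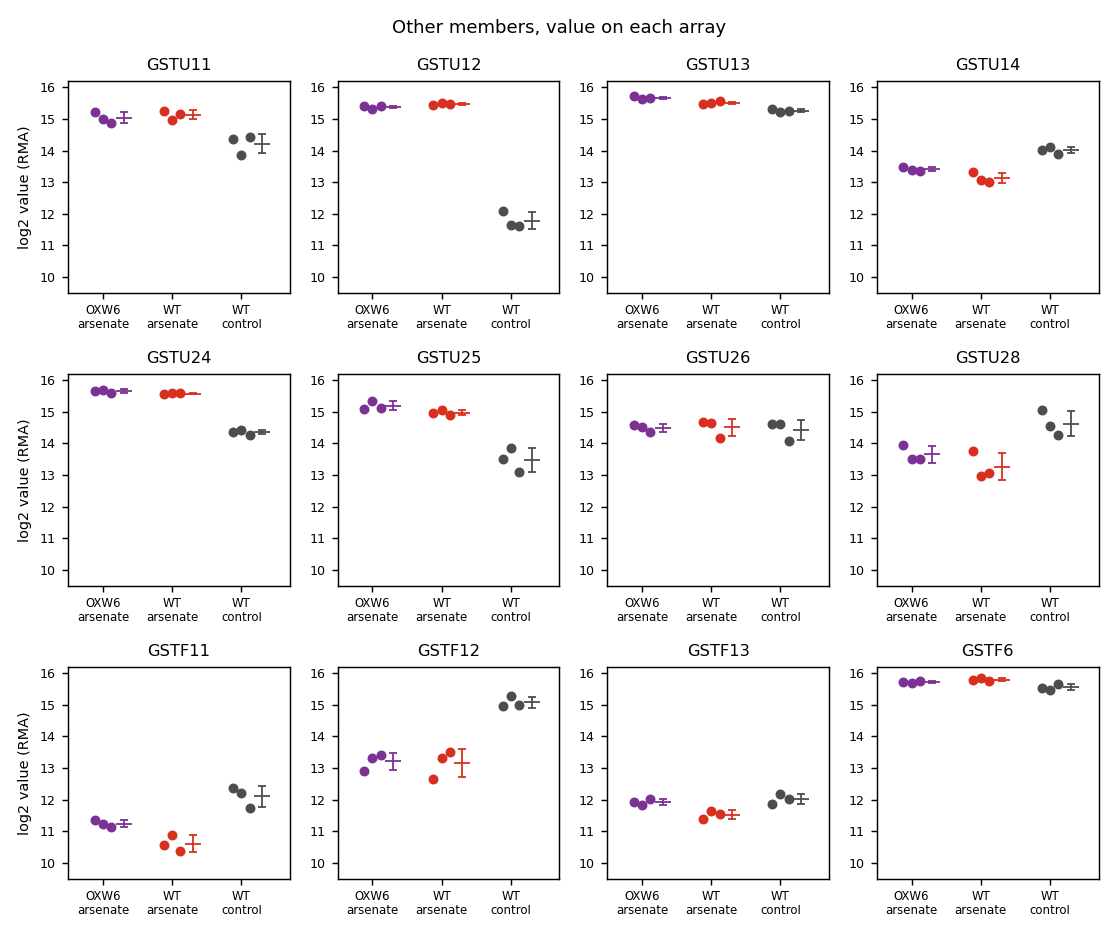
Log2 level of 12 members outside the GSTU1 to GSTU7 cluster (y axes, 1 panel per gene) on each array of OXW6 with arsenate, wild type with arsenate and wild-type control at 1.5 h. Points are single arrays in the order of their replicate numbers, and the bar beside them is the mean ± SD of the 3; GSTU12, GSTU24 and GSTU25 lie higher in both arsenate groups, GSTU14, GSTU28, GSTF11 and GSTF12 lie lower, and GSTU26 overlaps in all 3 groups.

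Among phi genes the changes of at least 1 log2 unit were both falls. GSTF12 (AT5G17220), known as TT19, is needed to bring anthocyanins to the vacuole. It had 12.66, 13.33 and 13.50 on wild-type arsenate arrays and 14.96, 15.27 and 15.00 on control arrays, and fell by 1.92 ± 0.23 (adjusted p = 0.00051), the largest fall of any member. GSTF11 (AT3G03190), known from aliphatic glucosinolate synthesis, had 10.56, 10.89 and 10.38 with arsenate and 12.36, 12.21 and 11.74 in controls. It fell by 1.49 ± 0.18 (adjusted p = 0.0006), and each of its arsenate arrays lay below each control array. GSTF13 (AT3G62760) had 11.37, 11.65 and 11.56 with arsenate and 11.86, 12.17 and 12.03 in controls, and fell by 0.50 ± 0.11 (adjusted p = 0.0093). On subtracting the median difference of features of like level its difference was -0.30 and was not called (0.059). GSTF14 (AT1G49860) was not called (-0.27 ± 0.12, adjusted p = 0.12) but was called with the block for replicate number (0.04).

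The cluster GSTF4 to GSTF7 held the 1 phi gene that rose. GSTF6 (AT1G02930), which acts in synthesis of the defence compound camalexin, had 15.78, 15.84 and 15.76 on wild-type arsenate arrays and 15.54, 15.46 and 15.65 on control arrays. The rise of 0.24 ± 0.07 (adjusted p = 0.029), at the top of the scale, was lost without any 1 of 5 arrays (0.058 to 0.084), the exception being control replicate 3. GSTF7 (AT1G02920), a close relative in sequence, differed by 0.10 ± 0.07 (adjusted p = 0.3). GSTF4 (AT1G02950) differed by -0.03 ± 0.08 (0.77), with -0.10 and -0.05 at its other features, and GSTF5 (AT1G02940) by -0.47 ± 0.31 (0.26), the widest error of any member, and by -0.23 without control replicate 3. GSTF6 and GSTF7, and likewise GSTF2 and GSTF3, are near-identical pairs, and probe sequences were not analysed here, so their features may share signal.

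The other phi genes were not called, and all but GSTF3 lay near the top of the scale. GSTF8 (AT2G47730), whose promoter carries an element for oxidant and salicylate induction, had 15.86, 15.84 and 15.94 on wild-type arsenate arrays and 15.66, 15.80 and 15.79 on control arrays (0.13 ± 0.07, adjusted p = 0.18). The groups were separate, and close to the highest level the arrays show. GSTF10 (AT2G30870), known as ERD13, differed by 0.15 ± 0.08 (0.17), GSTF2 (AT4G02520) by 0.02 ± 0.07 (0.84), and GSTF3 (AT2G02930) by -0.08 ± 0.10 (0.59). The features of GSTF9 (AT2G30860) differed by -0.00 ± 0.06 (0.96) and 0.04 ± 0.06 (0.63). At these levels GSTF2, GSTF7, GSTF8, GSTF9 and GSTF10 could show a fall but hardly a rise.

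**Figure D4:**
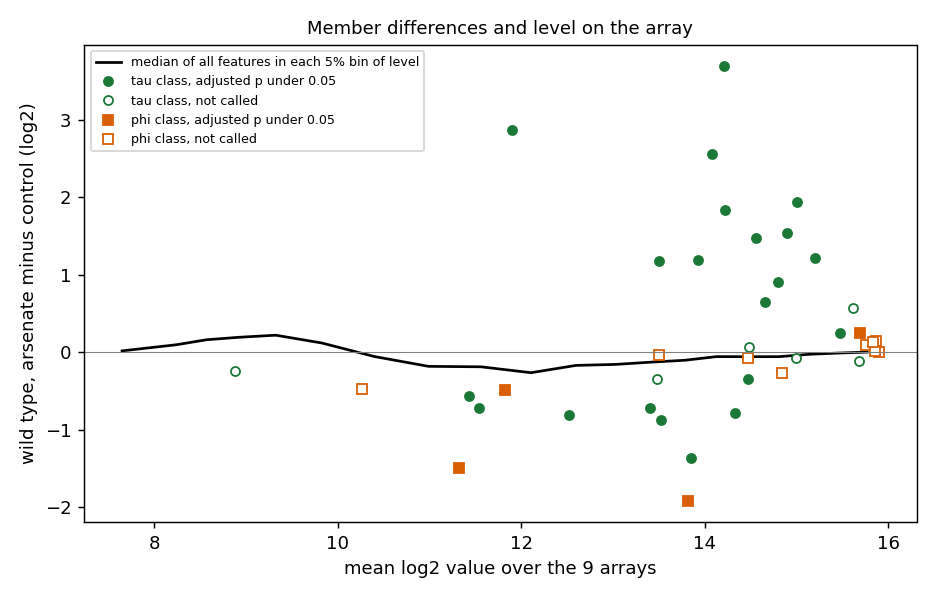
Difference between wild type with arsenate and wild-type control at 1.5 h (y axis, log2 units) against the mean level of each member over the 9 arrays (x axis, log2), with tau members as circles, phi members as squares and filled symbols for an adjusted p under 0.05. The line joins the median difference of all features in each 5% bin of level; most members with the highest levels lie close to it, and those between 11 and 15.5 lie on both sides.

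The median difference of all features changed with level, between -0.27 and 0.19 at the levels of the members. After these medians were subtracted, all 10 members that rose by at least 1 log2 unit and all 3 that fell as far were still called.

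Of the lists of other pathway genes, the one for detoxification other than glutathione transfer held the largest share of higher calls. In a list of 11 genes for glucosyltransferases, cytochrome P450 enzymes, oxophytodienoate reductases and related functions, 9 rose and 0 fell, where 18.9% of all features were called higher and 20.2% lower (median 0.77, against -0.02 over all features). The P450 gene CYP81D11 (AT3G28740) had 15.49, 15.61 and 15.49 on wild-type arsenate arrays and 11.50, 12.03 and 10.75 on control arrays, and rose by 4.11 ± 0.27 (adjusted p = 2.4e-05). The glucosyltransferase genes UGT73B4 (AT2G15490) and UGT73B5 (AT2G15480) rose by 1.84 ± 0.08 and 1.21 ± 0.10, and the transcription factor gene NAC032 (AT1G77450) by 1.41 ± 0.08. These 4 are the genes of the list with the smallest adjusted p. All pathway lists were chosen with earlier results of these data known. Their shares, here and in the comparisons below, describe the lists and are no test of a pathway response.

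The counts in the other 4 lists are to be read against the same 18.9% of all features called higher and 20.2% lower. Of 12 genes of other glutathione transferase classes, 1 rose and 1 fell at their brightest features. Another of these genes, not called at its brightest feature (0.09 ± 0.08, adjusted p = 0.38), had 1 other feature called. The other features of that gene differed by up to 0.95. DHAR2 (AT1G75270), which encodes a dehydroascorbate reductase, had 15.40, 15.69 and 15.35 on wild-type arsenate arrays and 15.10, 14.94 and 14.80 on control arrays. It rose by 0.53 ± 0.12 (adjusted p = 0.0093), whereas DHAR3 (AT5G16710) fell by 0.21 ± 0.07 (0.0475). The DHAR3 call was lost when any of the 6 arrays was left out (0.051 to 0.15). It was also lost with median centring (0.17), the compared groups only (0.081) or subtraction of the median difference of features of like level (0.062). Of 10 genes for glutathione synthesis and turnover 2 rose and 1 fell. GGCT2;1 (AT5G26220), which encodes an enzyme that breaks down glutathione, had 14.72, 15.10 and 14.25 with arsenate and 12.51, 12.95 and 12.43 in controls, a rise of 2.06 ± 0.33 (adjusted p = 0.0023). GGT1 (AT4G39640), for a transferase that starts breakdown outside the cell, rose by 0.39 ± 0.10 (0.02), and its relative GGT4 (AT4G29210) fell by 0.45 ± 0.15 (0.042). The GGT1 call was lost without control replicate 3 or any 1 arsenate array (0.0529 to 0.061), and the GGT4 call without any 1 of the 6 arrays (0.062 to 0.13). The GGT4 call was also lost with a further quantile normalization (0.065), median centring (0.069) or subtraction of the median difference of features of like level (0.16). The dimmer GGT4 feature was called too (-0.97), and the mean of both features fell by 0.71 (0.022). OXP1 (AT5G37830), for the oxoprolinase of the same route, differed by -0.25 ± 0.09 (0.061). It was called with the block for replicate number (0.037), a further quantile normalization (0.0484), an intensity trend with a robust prior (0.028) or without wild-type arsenate replicate 3 (0.0451).

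Of 5 ABCC transporter genes, whose products carry glutathione conjugates or phytochelatin complexes into the vacuole, 0 rose and 1 fell. That was ABCC5 (AT1G04120), by 0.33 ± 0.12 (adjusted p = 0.0496, and 0.094 to 0.15 without any 1 array other than arsenate replicate 3). The ABCC5 call was also lost with median centring (0.11) or subtraction of the median difference of features of like level (0.07). Of 8 genes for regulators, mostly TGA factors that bind the promoter element of many of these transferases, 0 rose and 2 fell. TGA1 (AT5G65210) had 14.18, 13.97 and 13.89 with arsenate and 15.07, 14.91 and 14.88 in controls, a fall of 0.94 ± 0.10 (adjusted p = 0.00033). TGA2 (AT5G06950) fell by 0.31 ± 0.09 (0.028), which was lost without any 1 array other than control replicate 3 (0.0507 to 0.082). The TGA2 call was also lost with a further quantile normalization (0.0544), median centring (0.065) or subtraction of the median difference of features of like level (0.17). TGA6 (AT3G12250) and TGA7 (AT1G77920) differed by -0.24 ± 0.16 and -0.32 ± 0.15 and, of the fits run, were called in the one with the block for replicate number (0.023 and 0.0088).

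Root markers fell over the same comparison. All 9 were called lower (median -1.23), and their mean level was 11.62 to 11.91 on wild-type arsenate arrays and 12.99 to 13.09 on control arrays, without overlap. Over all features 20.2% were called lower, and at the levels of the root markers the median difference of all features was -0.16 to -0.06. Of 8 green tissue markers 1 fell, LHCB1.1 (AT1G29920, -0.57 ± 0.17), and their mean level was 15.04 to 15.13 on wild-type arsenate arrays and 15.14 to 15.29 on control arrays. LHCB2.1 (AT2G05100) differed by -0.35 ± 0.17 (adjusted p = 0.13). The others, RBCS1A, LHCB3, PSAD-1, PSBO1, CAB4 and RCA, had mean levels of 15.82 to 15.90, near the top of the scale. A difference in them would be hard to see at that level. The labels name no tissue, and the mean levels of both marker lists lay above the lower quartile of every array. Single root markers lay lower. WER had 9.27 and 9.38 on wild-type arsenate replicates 1 and 3, below the lower quartile of every array. On wild-type arsenate replicate 2, RHD6, PLT2 and PLT1 had 9.48, 9.57 and 9.60, near that quartile. These genes had the largest falls of the root list (WER -1.61, RHD6 -2.04, PLT2 -1.42 and PLT1 -1.45). Whether the array resolves their falls at that level was not tested. In RNA of whole samples, fewer cells of a type and less RNA per cell cannot be told apart, and the part of the root markers' fall in the falls of members was not tested.

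The second comparison set OXW6 against wild type, both with arsenate. None of the 41 members was called by limma, where 0.0108% of all features (4) were, and the members' differences ran from -0.52 for GSTU3 to 0.63 for GSTF11, with a median of 0.05 against 0.01 over all features. The median difference of all features changed with level here too, between -0.10 and 0.12 at the levels of the members. At an unadjusted p under 0.05 there were 6 members, 5 higher and 1 lower, against 7.63% of all features. Array groups did not overlap for 7 members that were higher and 3 that were lower, against 6.39% and 4.06% of all features.

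GSTF11 had 11.35, 11.24 and 11.14 on OXW6 arrays and 10.56, 10.89 and 10.38 on wild-type arsenate arrays. The difference was 0.63 ± 0.18 (95% confidence interval 0.22 to 1.05, adjusted p = 0.52). GSTF13 had 11.93, 11.84 and 12.01 on OXW6 arrays and 11.37, 11.65 and 11.56 on wild-type arsenate arrays (0.40 ± 0.11, interval 0.15 to 0.65, adjusted p = 0.49). GSTU22 had 13.72, 13.73 and 13.61 against 13.36, 13.11 and 13.14 (0.48 ± 0.14, interval 0.16 to 0.80, adjusted p = 0.52). In these 3 genes every OXW6 array lay above every wild-type arsenate array, though none passed over all features. GSTU3 ran the other way, with 13.96, 13.50 and 13.17 on OXW6 arrays and 14.12, 14.03 and 14.05 on wild-type arsenate arrays (-0.52 ± 0.20, interval -0.98 to -0.06, adjusted p = 0.63). Its OXW6 arrays were spread more widely than its wild-type arsenate arrays (SD 0.39 and 0.05), and without OXW6 replicate 3 the difference was -0.33 (0.88).

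The other members without overlap differed little. GSTU13, GSTU14, GSTU25 and GSTU8 were higher in OXW6 by 0.16, 0.28, 0.23 and 0.16, and GSTU12 and GSTU10 were lower (-0.09 and -0.21). GSTU10, for example, had 14.82, 14.73 and 14.64 on OXW6 arrays and 14.96, 14.98 and 14.88 on wild-type arsenate arrays. For GSTU12 the interval of the difference was -0.37 to 0.19, but at such levels, near the array maxima in both groups, a difference would be hard to see. GSTU6 overlapped, with 15.06, 14.88 and 14.77 on OXW6 arrays and 15.04, 15.00 and 14.80 on wild-type arsenate arrays (interval -0.37 to 0.29). The root markers had mean levels of 11.91 to 12.25 on OXW6 arrays and 11.62 to 11.91 on wild-type arsenate arrays. Of their 9 differences 9 were positive and 0 were called (median 0.31). Of all 37118 features 20337 differences were positive and 16779 negative. At the levels of these markers the median difference of all features was positive too, at 0.02 to 0.07. The part of the root markers in the differences of members was not tested. No gene of the 5 pathway lists was called in this comparison.

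**Figure D5:**
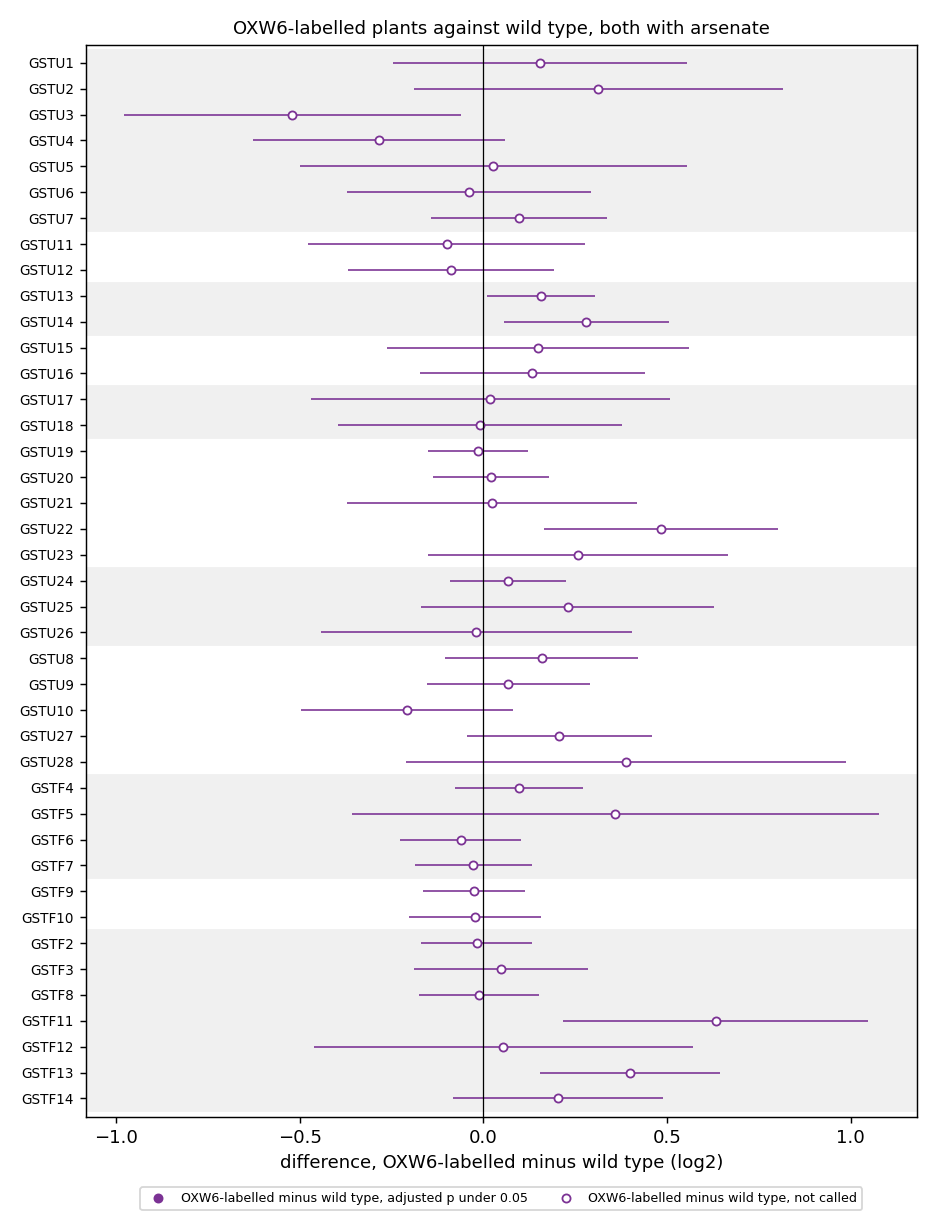
Difference between OXW6 and wild type, both with arsenate for 1.5 h (x axis, log2 units), for each of the 41 members (rows; tau above phi, tandem clusters and genes outside clusters in alternately shaded bands). Points are limma estimates and lines their 95% confidence intervals; every point is open, since 0 members passed an adjusted p of 0.05, and GSTF11 lies farthest right at 0.63 and GSTU3 farthest left at -0.52.

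The fit with estimated array weights differed. It gave OXW6 replicate 3 a weight of 6.81, against 0.41 and 0.39 for OXW6 replicates 1 and 2, so that 1 array stood for most of the group, and it called 2457 features higher and 3233 lower. Among members it called GSTF11 (0.58, adjusted p = 0.031) and GSTF13 (0.52, 0.014) higher and GSTU3 (-0.85, 0.018) and GSTU4 (-0.47, 0.03) lower.

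The third comparison set OXW6 with arsenate against the wild-type control, where genotype and arsenate differ together. It shares arrays with both comparisons above, so each is given on its own. Here 12 members were higher, 8 lower and 21 not called, with 8.12% of all features called higher and 12.5% lower, and 9 rose and 1 fell by at least 1 log2 unit, against 2.97% and 2.86% of all features. The 12 that rose were tau members, to which 2 of the other fits added the phi gene GSTF6, and 6 tau and 2 phi members fell.

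Of GSTU1 to GSTU7, 6 rose in this comparison. GSTU2 had 13.11, 13.28 and 12.78 on OXW6 arrays, against the control values given above, and rose by 3.18 ± 0.22 (adjusted p = 3.7e-05). GSTU5 had 15.75, 15.68 and 15.55 on OXW6 arrays and rose by 1.97 ± 0.23 (0.00064), and GSTU7 had 15.48, 15.49 and 15.44 and rose by 1.63 ± 0.10 (2.5e-05). The lowest OXW6 array of each of these genes lay more than 1 log2 unit above the highest control array. GSTU3 differed by 0.66 ± 0.20 (adjusted p = 0.0501), just outside the threshold, and it passed without control replicate 3 (0.038), without OXW6 replicate 3 (0.021) and in 5 of the other fits, while with array weights it was 0.28 (0.22). GSTU12 had 15.41, 15.33 and 15.41 on OXW6 arrays and rose by 3.60 ± 0.12 (9.7e-07). GSTU24, with 15.66, 15.70 and 15.58 on OXW6 arrays, rose by 1.29 ± 0.07, and GSTU25, with 15.10, 15.35 and 15.13, by 1.70 ± 0.17. GSTU26 was again not called (0.05 ± 0.18, adjusted p = 0.89).

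Further rises were those of GSTU11 (0.81 ± 0.16), GSTU13 (0.41 ± 0.06) and GSTU10 (0.44 ± 0.13, adjusted p = 0.041). The GSTU10 call was lost without any 1 of 5 arrays, the exception being control replicate 1 (0.068 to 0.12 without the others). GSTU14, GSTU16, GSTU18 and GSTU27 fell, with differences of -0.60 ± 0.10, -0.67 ± 0.13, -0.73 ± 0.17 and -0.58 ± 0.11. GSTU21 (-0.70 ± 0.17, adjusted p = 0.023) and GSTU28 (-0.98 ± 0.26, 0.031) also fell, and these calls were lost without control replicate 1 (0.056 and 0.093), OXW6 replicate 2 (0.067 and 0.084) or OXW6 replicate 3 (0.068 and 0.095), and for GSTU28 also without control replicate 2 (0.066).

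Of the phi genes, GSTF12 had 12.91, 13.33 and 13.41 on OXW6 arrays and fell by 1.86 ± 0.23 relative to the control (adjusted p = 0.00076), and GSTF11 fell by 0.86 ± 0.18 (0.011). GSTF13 differed by -0.10 ± 0.11 (0.56) and overlapped the control arrays. GSTF6, with a difference of 0.18 ± 0.07, was not called (0.12), but it was with an intensity trend and robust prior (0.03) or array weights (0.036). In the detoxification list 8 of 11 rose and 0 fell, against 8.12% and 12.5% of all features, CYP81D11 by 4.24 ± 0.27. The root markers had mean levels of 11.91 to 12.25 on OXW6 arrays and 12.99 to 13.09 on control arrays, with 6 of 9 lower, and their part was not tested.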

How the data were processed

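Total RNA of 9 samples was hybridised as Cy3-labelled cDNA to single-colour NimbleGen 12x135K arrays, 1 sample per array, after isolation with a column kit and a Bioanalyzer check, per the labels' protocols. The values used are the deposited log2 levels, which the authors summarised with RMA, per the submitters' processing notes (its version: not given in the sources used here). Because RMA equalises the distributions of arrays, a change shared by most genes would not be seen, and features near either end of the scale show smaller differences. No depth applies to arrays, and their number, 3 per group, limits the precision. Groups and replicate numbers came from the labels, which name no batch. The 8 h ATH1 arrays of the series were not used here, because their probe sets are not paired with loci in the tables used.

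All 37118 features were fitted with limma (version 3.58.1, R 4.3.3): lmFit over the 3 groups, then contrasts.fit and eBayes. Tests were two-sided, p-values were adjusted by Benjamini-Hochberg over all features of a contrast, and features with an adjusted p under 0.05 were called. Standard errors are the moderated ones. The method was tested on simulated data. All 41 members matched the RefSeq gene table, which was used for names and gene order only, since the arrays' genome build is unnamed, and no sequence was printed because none was in the sources used here. All members, WRKY6 and up to 4 genes of each pathway list per comparison, those with the smallest adjusted p, could be named. Members, lists and markers were chosen with earlier results of these data known.

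Same-numbered arrays of different groups, paired through the numbers in the sample titles, deviated together from their group means (r 0.29 to 0.63, against -0.56 to 0.18 for different numbers). Deviations from a group mean cancel within the group, so a positive r for same numbers lowers r for different numbers, and these ranges are not independent. The alternatives were the replicate number as a block, a further quantile normalization, median centring, leaving out features below the 40th percentile in all groups, an intensity trend with a robust prior, the compared groups only, array weights, the mean of a locus' features, subtracting the median difference of features of like level (5% bins), and leaving out each array.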

Additional observations from a re-analysis of the deposited data

How the results depend on the processing

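In wild type with arsenate against control, 12 of the 14 higher and 8 of the 11 lower calls held in all 15 alternative fits, the exceptions being GSTU13, GSTF6, GSTU23, GSTU9 and GSTF13, and in OXW6 with arsenate against the wild-type control 11 of 12 and 6 of 8 held, the exceptions being GSTU10, GSTU21 and GSTU28. Leaving out 1 array gave 12 to 14 members higher and 9 to 11 lower in the first, 11 to 13 and 6 to 9 in the second, and 0 and 0 in OXW6 against wild type with arsenate, where array weights gave 2 and 2; the cause was not tested. With the replicate block 15 members were higher and 13 lower with arsenate in wild type, GSTU17, GSTU22 and GSTF14 being gained, as were OXP1, TGA6 and TGA7, and it changed no other call among the members and pathway genes refitted with it, which leave out the markers, neighbours and WRKY6 and, in both OXW6 comparisons, the pathway genes and part of the members. Differences near 0 turned sign: in wild type, GSTF4 with a further quantile normalization (0.0225), median centring (0.0449) and level matching (0.103), GSTF9 with median centring (0.0723), array weights (0.0104) and the mean of its features (0.0191), and ABCC3 with the mean of its features (0.0861), and, on leaving out arrays, GSTU26 (-0.119 to 0.224), GSTU8 (-0.159 to 0.0393), GSTF9 (-0.0245 to 0.0218) and GSTF2 (-0.0036 to 0.0437). In OXW6 with arsenate against control GSTF13 turned with level matching (0.005). None of these was called. Phi members called higher with arsenate in wild type numbered 1, against 2 when arrays were centred on their medians, 0 in the fit of the compared groups, and 0 to 1 without 1 array. GSTF8 passed with median centring (0.21, adjusted p = 0.0473). Median centring moved calls over all features in wild type to 9066 higher and 6110 lower, against 7016 and 7501. Leaving out 1 array brought them to as few as 3571 higher and 5355 lower. In OXW6 with arsenate against control 3014 were higher and 4624 lower, against 4325 and 7054 with the replicate block and 6189 and 7131 with array weights. Signal near the top of the scale limits what the 10 brightest members can show.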
